A study of Lepidobatrachus laevis with 14 samples.

Results

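The core genes of planar cell polarity were measured in the left and right sides of the stomach in the frog Lepidobatrachus laevis. The set named 10 genes by their human UniProt entries: VANGL1 (entry VANG1), VANGL2 (VANG2), PRICKLE1 (PRIC1), PRICKLE2 (PRIC2), CELSR1 (CELR1), CELSR2 (CELR2), CELSR3 (CELR3), FZD3, FZD6 and ROR2. Of these, 9 were matched by entry name, among 13574 reviewed entry names in the deposited counts, and CELSR2 was not analysed here. The 9 genes held 12 rows, since VANGL1, FZD6 and CELSR3 each had 2 isoform rows, and the reviewed row with the most reads stood for each gene. All 9 chosen rows passed the filter on low counts (filterByExpr of edgeR).

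Planar cell polarity is the alignment of cells within the plane of a tissue, and the same proteins steer cell intercalation when a tissue lengthens or thins. CELSR cadherins bridge neighbouring cells, VANGL proteins with their cytoplasmic partners PRICKLE gather on one face of a cell, and Frizzled receptors with Dishevelled gather on the opposite face. ROR2 is a receptor tyrosine kinase that binds WNT5A, and in mice WNT5A and ROR2 are needed for normal gut elongation.

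RNA was sequenced from 14 libraries, 7 from each side. The animals were wild-caught and of wild-type genotype, at Gosner stage 19, and the labels name no treatment. Replicates 1, 2, 3, 5 and 6 of each side came from 1 stomach each, and replicates 7 and 8 pooled 1 side of 5 stomachs. Libraries of the pools were constructed at another facility, so pooling and facility cannot be told apart, and the labels do not say that libraries sharing a title stem (here a title pair) came from the same animal. The study's title concerns the requirement for SIM2 in asymmetric stomach shape, and the side comparison asks which transcripts differ between left and right.

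Total counts ran from 21525694 to 62707669 in the single-stomach libraries and from 12174670 to 20022774 in the pools. All 9 stomach and foregut markers examined, among them SOX2, GATA4, FOXA2 and BARX1, were detected in each library, and their summed level ran from 659 to 950.2 CPM (reads of a row scaled to a common library total). Liver markers (4 of 5 matched) summed to 1233 to 7951 CPM in the single-stomach libraries and 18147 to 29094 CPM in the pools. Multiciliated cell markers (4 of 4) summed to 57.4 to 175 CPM and 2.74 to 17.6 CPM, and epidermal markers (3 of 4) to 352 to 1349 CPM and 120.2 to 261 CPM. Within the single-stomach libraries an earlier look at these data had separated replicates 1 to 3 from replicates 5 and 6, a division that the labels do not give. In tissue libraries, fewer cells of a type and less RNA per cell cannot be told apart. The counts carry no transcript lengths, so levels below are compared within a gene and not between genes.

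**Figure D1:**
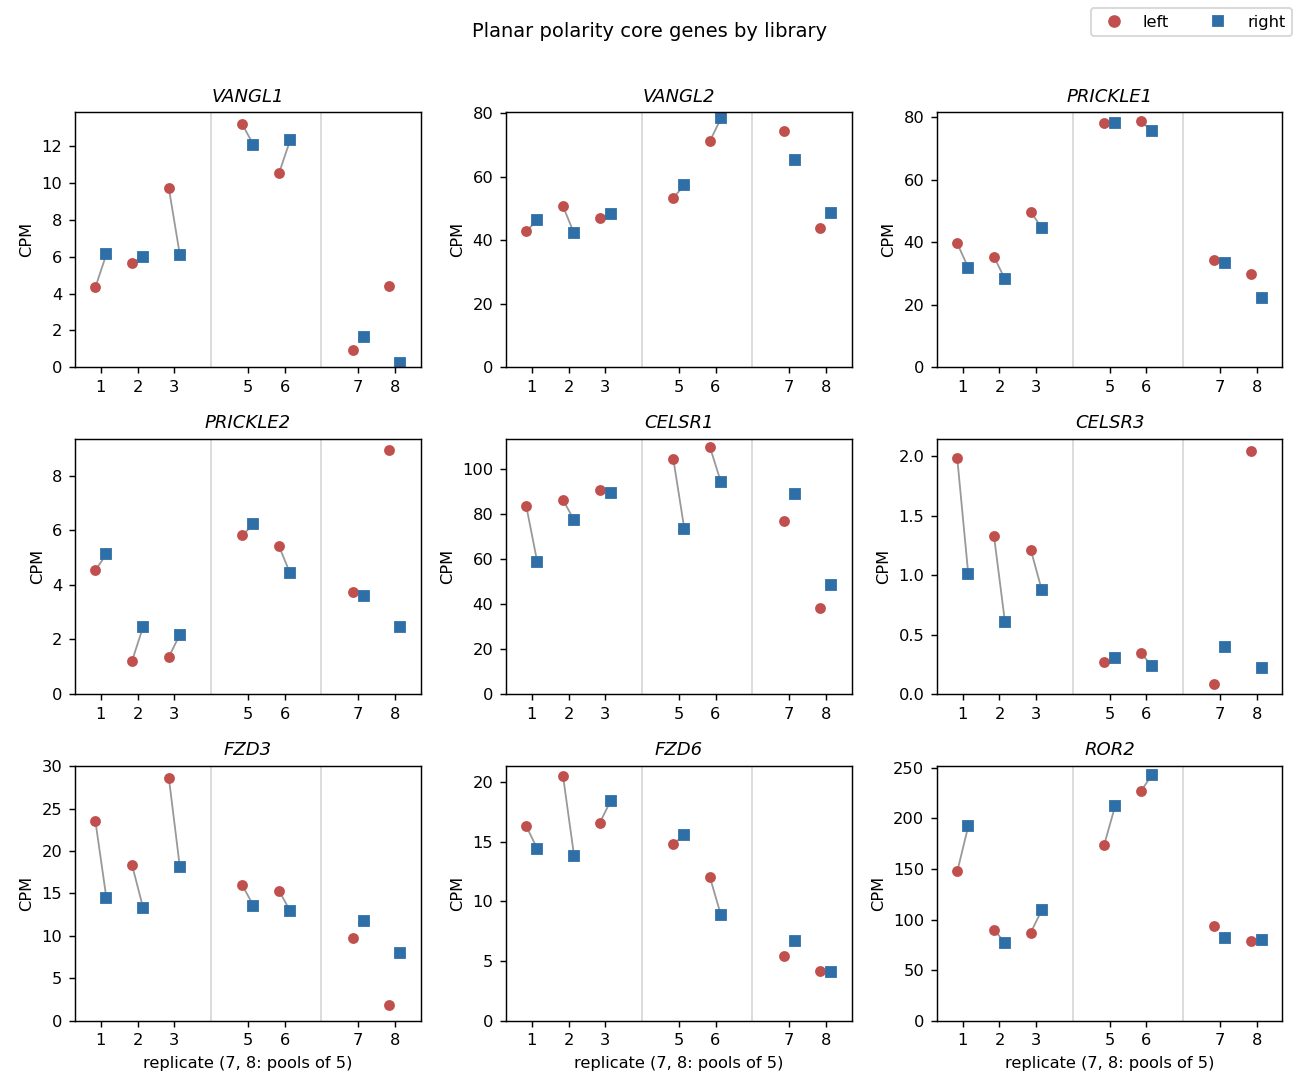
Level in CPM (linear axes from 0) of the 9 planar polarity genes in each library, left as circles and right as squares, with grey lines joining single-stomach title pairs and grey rules parting replicates 1 to 3, 5 and 6, and the pools. FZD3 and CELSR1 lie higher on the left in 5 of 5 title pairs, and FZD6 is lower in all 4 pools (4.11 to 6.71 CPM) than in any single-stomach library (8.82 to 20.5 CPM).

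Across the 14 libraries no planar polarity gene separated the left from the right stomach. The sides overlapped for all 9 genes, and 0.00859% of 23271 rows were higher on the left with no overlap (0% lower, 0.00859% in all). By edgeR's quasi-likelihood test, adjusted for library source, 0 of the 9 and 0% of rows were called. At an unadjusted p under 0.05 there were 0 of the 9 genes and 247 rows (1.06%), and DESeq2 also called 0 rows. The fitted log2 fold, left over right, was positive for 7 genes and negative for 2, with a median of 0.15 against 0.01 over all rows. Whatever their p, 52.9% of rows had a positive fold and 47.1% a negative one. The standard errors of these folds ran from 0.17 (VANGL2) to 0.60 (CELSR3), so differences of that order could not be resolved. Larger ones can be missed too, since a fold of several standard errors may fail a test over all rows. FZD3 within title pairs was such a case (0.46 ± 0.10, edgeR adjusted p = 0.567).

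CELSR1, the cadherin that joins planar polarity complexes across cell borders, overlapped between the sides across the 14 libraries. Its order differed between title pairs and pools, as given below. Left libraries ran from 38.1 through a median of 86.1 to 109 CPM, and right libraries from 48.3 through 77.1 to 93.8 CPM. Its log2 fold was 0.12 ± 0.18 (SE; edgeR adjusted p = 0.999977, as for all 9 genes), and the lowest library on each side was pool 8. CELSR3, a paralog best known for axon guidance, was rare, with 1 to 61 reads per library. Left libraries held 0.0866 to 2.05 CPM with a median of 1.22 CPM, and right libraries 0.216 to 1.01 CPM with a median of 0.392 CPM. The log2 fold of CELSR3 was 1.02 ± 0.60. It was 0.51 ± 0.58 without the left pool 8, the library with its highest level.

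The Frizzled receptors FZD3 and FZD6, which act with VANGL proteins in mammalian hair and neural tube polarity, also overlapped between the sides. FZD3 ran from 1.82 through 16.0 to 28.7 CPM in left libraries, against 7.94 through 13.3 to 18.1 CPM in right libraries. Its log2 fold was 0.15 ± 0.31 in all libraries and 0.39 ± 0.18 without the left pool 8, which held its lowest level. Neither value passed the test. FZD6 ran from 4.17 through 14.8 to 20.5 CPM in left libraries, against 4.11 through 13.8 to 18.4 CPM in right libraries, with a log2 fold of 0.08 ± 0.18.

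The VANGL and PRICKLE genes, which encode the membrane protein and the cytoplasmic adaptor of the complex opposite Frizzled, showed no side difference that passed the test. VANGL2 was nearly level, at 42.8 to 74.4 CPM (median 50.7) in left samples against 42.1 to 78.4 CPM (median 48.4) in right samples. Its log2 fold was -0.01 ± 0.17, the smallest of the 9, and its sign changed when single libraries were left out. VANGL1 spread widely within each side, from 0.953 to 13.2 CPM (left) and from 0.216 to 12.3 CPM (right), around medians of 5.68 and 6.11 CPM. Its log2 fold of 0.37 ± 0.43 was 0.02 ± 0.37 without the left pool 8 and 0.15 ± 0.37 without the right pool 8. The right pool 8 held only 3 reads on the chosen VANGL1 row and 5 on its other isoform row.

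PRICKLE1, an adaptor that binds VANGL, ran from 29.9 through 39.6 to 78.6 CPM in left libraries, against 22.0 through 33.3 to 78.1 CPM in right libraries (log2 fold 0.15 ± 0.26). PRICKLE2, its paralog, ran from 1.21 through 4.53 to 8.94 CPM in left libraries, against 2.18 through 3.58 to 6.21 CPM in right libraries. The log2 fold of PRICKLE2 was 0.18 ± 0.42, and -0.07 ± 0.40 without the left pool 8, which held the highest level. ROR2, the co-receptor for WNT5A, ran from 78.7 through 93.4 to 227 CPM in left libraries, against 77.0 through 109 to 243 CPM in right libraries. Its log2 fold was -0.12 ± 0.27. None of these values exceeded the spread between libraries of one side.

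Within the single-stomach title pairs, FZD3 and CELSR1 were higher on the left in 5 of 5 pairs, though neither passed the test over all rows. These 2 of 9 genes compare with 3.53% of 23768 rows that were higher on the left in every pair, and 0 of the 9 were lower in every pair (3.76% of rows, 7.28% in either direction). The paired edgeR test, with title pair as a block, called 0 of the 9 genes and 0% of rows. Its unadjusted p was under 0.05 for 3 of the 9 genes (FZD3, CELSR1 and CELSR3) and for 1360 rows (5.72%). The paired folds of the 9 were positive for 6 genes and negative for 3, where 49.6% of rows were positive and 50.4% negative. DESeq2 with the same block called 105 rows, and none of the 9 genes was among them.

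FZD3 had the lowest unadjusted p of the 9 genes within pairs. In replicates 1, 2 and 3 left samples held 23.6, 18.3 and 28.7 CPM, against 14.5, 13.3 and 18.1 CPM in right samples. Replicates 5 and 6 held 16.0 and 15.3 CPM in left samples, against 13.6 and 13.0 CPM in right samples. The left-to-right ratio thus ran from 1.18 in replicate 5 to 1.63 in replicate 1, and in replicates 1 to 3 the sides did not overlap. The latter held for 2 of the 9 genes, FZD3 and CELSR3, both higher on the left, beside 3.42% of rows higher, 3.55% lower and 6.97% in all. The paired log2 fold was 0.46 ± 0.10, with an unadjusted p of 0.00159 and an adjusted p of 0.567 (edgeR). By DESeq2 the adjusted p was 0.0614, and 0.0297 when replicate 5 was left out. The DESeq2 fits without 1 replicate were added after the data were seen, and FZD3 was not called without replicate 1, 2, 3 or 6. In the pools the order was not kept, with FZD3 at 9.70 and 1.82 CPM in the left pools and 11.8 and 7.94 CPM in the right pools. The side difference was not shown to differ between pools and single-stomach libraries (interaction log2 fold -1.27 ± 0.63, edgeR adjusted p = 0.659), a comparison in which 0% of 24262 rows were called 1911 (7.88%) had an unadjusted p under 0.05 and DESeq2 called 141.

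CELSR1 differed less from side to side. Its levels were 83.3, 86.1, 90.7, 104 and 109 CPM in left replicates 1, 2, 3, 5 and 6, against 58.5, 77.1, 89.1, 73.3 and 93.8 CPM in right ones. The ratio was 1.42 in replicates 1 and 5 and only 1.02 in replicate 3. The paired log2 fold was 0.28 ± 0.09 (unadjusted p = 0.0133, edgeR adjusted p = 0.774). In the pools CELSR1 was at 76.6 and 38.1 CPM (left) and 88.7 and 48.3 CPM (right), the reverse order.

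The left exceeded the right in 4 of 5 pairs for CELSR3, at 1.99, 1.33, 1.22, 0.267 and 0.346 CPM in left samples against 1.01, 0.604, 0.876, 0.301 and 0.234 CPM in right samples. Its paired log2 fold was 0.63 ± 0.26 (unadjusted p = 0.0381, edgeR adjusted p = 0.853). These levels rest on 13 to 61 reads per library. Its side difference in replicates 1 to 3, where the sides did not overlap, moved with neural crest markers (2 of 3 matched, SOX10 and FOXD3). Their summed level was 21.3, 6.75 and 6.41 CPM in left samples, against 2.90, 0.216 and 3.42 CPM in right samples of those replicates. Markers of other tissues also separated there without overlap. FOXA2 (54.0 to 57.4 CPM left, 33.8 to 51.1 right) and the epithelial marker CLDN6 (145 to 186, 102 to 119) were among those higher on the left. GATA4 (64.2 to 91.0 CPM left, 97.1 to 127 right) was among those lower. In replicates 5 and 6 the neural crest sum was at most 0.935 CPM. In replicate 5 it was 0.0822 CPM (left) and 0.0167 CPM (right), the reverse of the CELSR3 order. In the pools 7 and 8 it was lower on the left, at 1.91 and 1.36 CPM against 5.88 and 3.54 CPM on the right. CELSR3 was lower on the left in pool 7 too, but higher in pool 8, where the left library held its highest level. The pool titles give no pairs, so pools of the same number are set side by side here without being matched. FOXD3 was at 0 in right 2, left 5, left 7 and left 8, and SOX10 at 0 in right 5. The 8 neuronal markers summed to 52.5 to 170 CPM in the single-stomach libraries and the sum was higher on the left in replicates 1 and 3 but lower in replicates 2, 5 and 6. TUBB3 and SYT1 made up most of that sum. TUBB3 was at 87.5, 4.23, 22.4, 98.1 and 55.7 CPM in left replicates 1, 2, 3, 5 and 6. The erythroid marker GATA1 was at 72.1, 3.79, 18.8, 110 and 35.8 CPM in the same libraries. SYT1 ran from 51.1 to 56.3 CPM in replicates 5 and 6, 13.7 to 38.1 CPM in replicates 1 to 3 and 2.30 to 8.11 CPM in the pools. How far the sum stands for neurons was not tested. Counted by marker, 7 of the 8 neuronal markers were higher on the left in replicate 1, 6 in replicate 2, 4 in replicate 3, 2 in replicate 5 and 6 in replicate 6. In replicate 2 the neuronal marker ELAVL3 (entry ELAV3) was at 10.2 CPM on the left and 0.647 on the right, and TUBB3 (TBB3) at 4.23 and 32.2. The part of these cells in the CELSR3 and FZD3 values was not tested.

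The other genes kept no common order within pairs. For PRICKLE1 the left exceeded the right in 4 of 5 pairs, with ratios from 0.999 to 1.25 (log2 fold 0.17 ± 0.08, adjusted p = 0.882). FZD6 was higher in 3 of 5 (0.900 to 1.48) and VANGL1 in 2 of 5 (0.707 to 1.59). VANGL2, PRICKLE2 and ROR2 were each higher on the left in 1 of 5 pairs, which was replicate 2 for VANGL2 and ROR2 and replicate 6 for PRICKLE2. Their paired log2 folds were -0.03 ± 0.08, -0.28 ± 0.19 and -0.18 ± 0.09, with adjusted p of 0.975, 0.897 and 0.894 by edgeR.

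**Figure D2:**
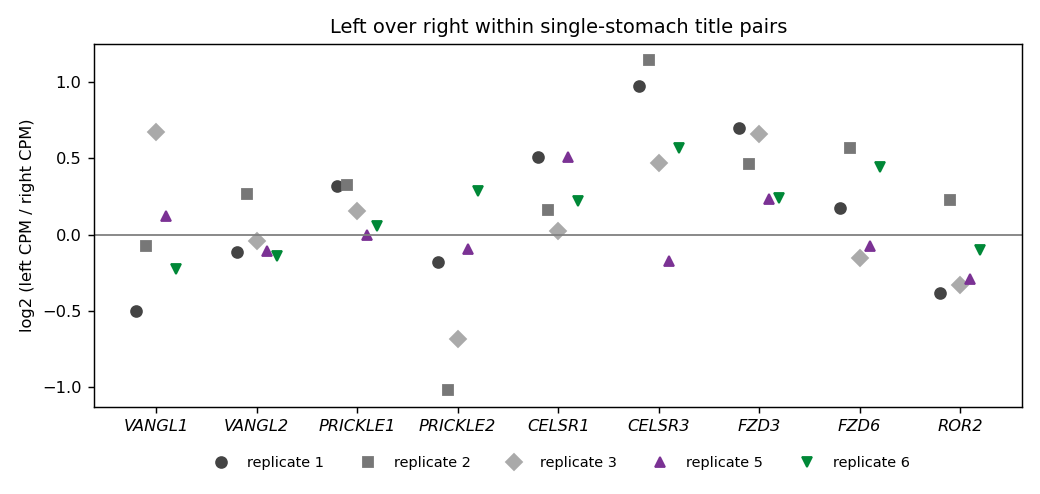
Log2 ratio of left to right CPM within each of the 5 single-stomach title pairs, 1 symbol per replicate. All 5 symbols lie above 0 for FZD3 and CELSR1, and the 5 symbols of CELSR3 span ratios from 0.888 to 2.21.

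**Figure D3:**
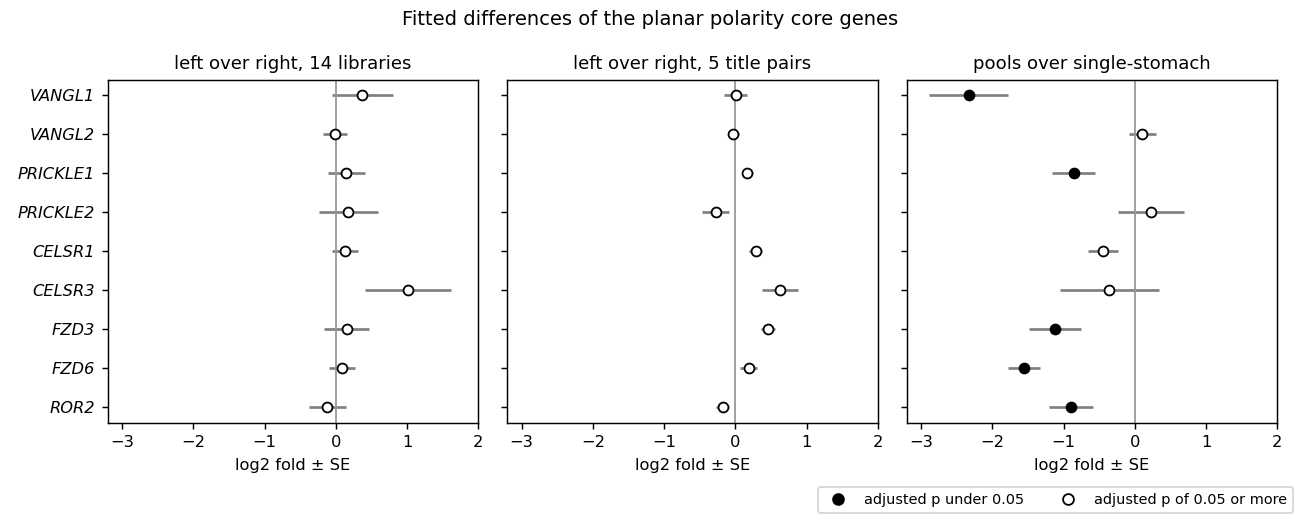
Fitted log2 fold with its standard error (bars) for the 9 genes in 3 comparisons, filled where the edgeR adjusted p was under 0.05. No gene is filled in the side comparisons, and VANGL1, PRICKLE1, FZD3, FZD6 and ROR2 are filled, all below 0, for pools over single-stomach libraries.

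The calls of the set lay between the pools and the single-stomach libraries. There 5 of 9 genes (VANGL1, PRICKLE1, FZD3, FZD6 and ROR2) were lower in the pools by the edgeR test and 0 were higher, while 30.4% of 23271 rows were called, 17.7% lower and 12.7% higher. The median log2 fold of the 9 genes was -0.86, against -0.10 over all rows. DESeq2 called the same 5 genes.

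FZD6 fell in the pools. The pools held 5.46, 6.71, 4.17 and 4.11 CPM in left 7, right 7, left 8 and right 8, and the 10 single-stomach libraries 8.82 to 20.5 CPM with a median of 15.2 CPM. No pool reached the lowest single-stomach library. The log2 fold was -1.55 ± 0.22 (edgeR adjusted p = 0.000199), a level 2.94-fold lower, and FZD6 was called in 14 of 14 fits that each left out 1 library. Its second row, the isoform O60353-2, held 35.2% to 53.0% of the reads of the entry and gave -1.51 ± 0.25 (adjusted p = 0.00054). Rows of one entry may share reads, so the second row is not a separate measurement.

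VANGL1 fell by 2.33 ± 0.55 on the log2 scale (edgeR adjusted p = 0.00544). Its levels in the pools were 0.953 CPM in left 7, 1.62 in right 7, 4.40 in left 8 and 0.216 in right 8, from 3 to 58 reads. Single-stomach libraries ran from 4.33 to 13.2 CPM with a median of 7.93 CPM, so left 8 just overlapped the lowest of them. The other VANGL1 isoform row, with 1 to 12 reads per pool, gave -2.74 ± 0.47 (edgeR adjusted p = 0.000638). VANGL1 was called in 14 of 14 fits that left out 1 library. Without left 8 its log2 fold was -3.18 ± 0.55, and without right 8 it was -1.94 ± 0.50. VANGL2, its paralog, was at 74.4, 65.1, 43.7 and 48.4 CPM in left 7, right 7, left 8 and right 8 and at 42.1 to 78.4 CPM in the single-stomach libraries (log2 fold 0.11 ± 0.19, adjusted p = 0.704).

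FZD3 was lower in the pools (1.82 to 11.8 CPM) than in every single-stomach library (13.0 to 28.7 CPM), with a log2 fold of -1.12 ± 0.37 (edgeR adjusted p = 0.0314). It was called in 11 of 14 fits that left out 1 library, and lost without right 3 (adjusted p = 0.0513), left 7 (0.0570) or right 8 (0.0649). Without left 8 its fold was -0.75 ± 0.23 (adjusted p = 0.0256). FZD3 and FZD6 were the 2 of 9 genes (22.2%) with no overlap, both lower, where 11% of rows were lower with no overlap, 6.85% higher and 17.8% in all.

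ROR2 and PRICKLE1 were called less firmly. ROR2 was at 93.4, 81.8, 78.7 and 79.4 CPM in the 4 pools and ranged from 77.0 to 243 CPM in the single-stomach libraries, so the pools lay inside that range. The log2 fold of ROR2 was -0.90 ± 0.31 (edgeR adjusted p = 0.0393), and PRICKLE1 (22.0 to 34.1 CPM in the pools, 28.2 to 78.6 CPM in single-stomach libraries) gave -0.86 ± 0.30 (adjusted p = 0.0454). Each was called in 4 of 14 fits that left out 1 library, and the folds depended on the single-stomach set. Against replicates 1 to 3 alone neither was called, with log2 folds of -0.46 ± 0.24 for ROR2 (adjusted p = 0.168) and -0.33 ± 0.17 for PRICKLE1 (0.165). Against replicates 5 and 6 alone both were called by edgeR, at -1.40 ± 0.15 for ROR2 (adjusted p = 0.00013) and -1.42 ± 0.17 for PRICKLE1 (0.000236). In the fits that left out 1 library, 2 to 5 of the 9 genes were called, with 2 without left 7 or right 8.

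CELSR1, CELSR3 and PRICKLE2 did not pass the test between pools and single-stomach libraries. Their log2 folds were -0.45 ± 0.21 (edgeR adjusted p = 0.119), -0.36 ± 0.70 (0.734) and 0.23 ± 0.46 (0.740). CELSR1 ran from 38.1 to 88.7 CPM in the pools and was called only in the fit without right 7, where its log2 fold was -0.72 ± 0.20 (edgeR adjusted p = 0.0182). Without left 8 it was -0.26 ± 0.18 (0.333). CELSR3 in the left pool 8, at 2.05 CPM, stood far above the other 3 pools at 0.0866, 0.392 and 0.216 CPM.

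Levels of markers of other cell types differed between pools and single-stomach libraries beside these genes. All 4 multiciliated cell markers and all 3 epidermal markers were called lower in the pools (median log2 folds -3.55 and -4.77), and all 4 liver markers higher (median 2.49). Of these markers, TP63 was at 0 in the right pool 7, FOXJ1 in the right pool 8 and CCNO in the left pool 8. On its chosen row VANGL1 was lowest where these sums were lowest, in right 8 (3 reads, multiciliated sum 2.74 CPM, epidermal sum 120.2 CPM). Its highest pool, left 8, had the highest pool sums (17.6 and 261 CPM). The other pools did not keep that order, with VANGL1 at 0.953 CPM in left 7 and 1.62 CPM in right 7 beside multiciliated sums of 8.06 and 3.43 CPM. On the other VANGL1 isoform row the lowest pool was left 7 (0.0866 CPM), with 0.196 CPM in right 7, 0.909 in left 8 and 0.361 in right 8. FZD6, in contrast, was at 4.17 and 4.11 CPM in left 8 and right 8. The 7 epithelial markers had 2 called lower and 0 higher, and the 5 matched mesenchymal markers 1 lower and 0 higher. Among the pools the epithelial sum kept the order of the multiciliated and epidermal sums, so that order was not particular to them. It was 4481 CPM in right 8, 5186 in right 7, 6955 in left 7 and 10246 in left 8. The part of these cell types in the lower levels was not tested.

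**Figure D4:**
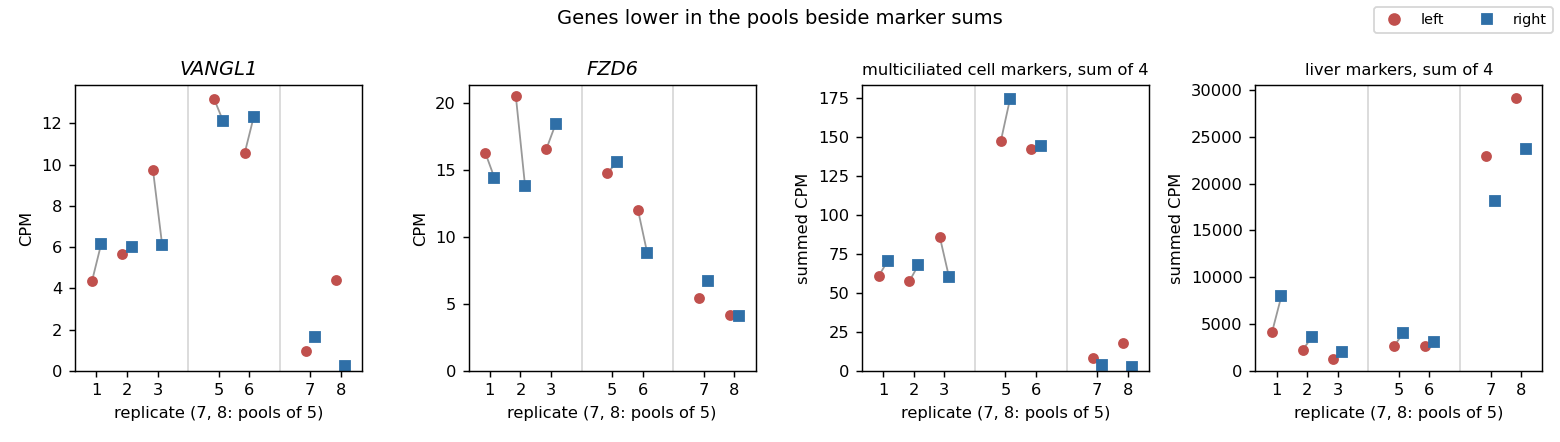
VANGL1 and FZD6 in CPM, and the summed CPM of 4 multiciliated cell markers and of 4 liver markers, by library with left as circles and right as squares. VANGL1 (its chosen row only) and the multiciliated sum are both lowest in the right pool 8 and highest in replicates 5 and 6. FZD6 is lowest in the pools without rising in replicates 5 and 6, and liver markers are highest in the pools.

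Between the 2 sets of single-stomach libraries the genes divided, with some higher in replicates 5 and 6 and others lower. This is a description, since the sets were seen in these values. VANGL1, VANGL2 and PRICKLE1 were higher in replicates 5 and 6 with no overlap and CELSR3 was lower with no overlap. Those 4 of 9 (44.4%) stand beside 37.1% of all rows that did not overlap between the same libraries. For VANGL1 this held only for the chosen row. Its other isoform row overlapped, at 1.75 to 3.19 CPM in replicates 5 and 6 and 1.76 to 4.28 CPM in replicates 1 to 3. PRICKLE1 was at 77.5 ± 1.39 CPM (SD, n = 4) in replicates 5 and 6 and at 38.2 ± 8.06 CPM (SD, n = 6) in replicates 1 to 3, a ratio of 2.03. VANGL1 was at 12.04 ± 1.10 and 6.33 ± 1.80 CPM, and VANGL2 at 65.1 ± 11.8 and 46.2 ± 3.25 CPM. CELSR3 was at 0.287 ± 0.0481 and 1.17 ± 0.475 CPM, a level 4.08-fold higher in replicates 1 to 3.

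The remaining genes overlapped between these sets. ROR2 was at 214 ± 29.5 CPM in replicates 5 and 6 and 117 ± 44.4 CPM in replicates 1 to 3, where replicate 1 (148 and 192 CPM) stood above replicates 2 and 3 (77.0 to 109 CPM). PRICKLE2 divided in the same way, with 4.53 and 5.12 CPM in replicate 1, 1.21 to 2.46 CPM in replicates 2 and 3 and 4.43 to 6.21 CPM in replicates 5 and 6. FZD3 (14.5 ± 1.42 and 19.4 ± 5.78 CPM) and FZD6 (12.8 ± 3.06 and 16.7 ± 2.49 CPM) had lower means in replicates 5 and 6, and CELSR1 a higher one (95.2 ± 16.0 and 80.8 ± 11.9 CPM). Multiciliated markers summed to 142 to 175 CPM in replicates 5 and 6 and 57.4 to 85.9 CPM in replicates 1 to 3, and epidermal markers to 1112 to 1349 and 352 to 682 CPM. Other lists also separated without overlap, with epithelial sums of 9203 to 11150 and 2738 to 6141 CPM. Smooth muscle sums were 411 to 463 and 145 to 272 CPM. Endothelial sums were lower in replicates 5 and 6, at 125 to 138 and 176 to 258 CPM. Total counts separated as well, at 47441280 to 62707669 and 21525694 to 34229305. The part of these cell types and of depth in these differences was not tested.

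Other genes of the pathway, 40 in a list of ligands, receptors, adaptors, transport factors and effectors, were measured for 37 genes, of which 36 passed the filter. Between the sides 0 of 36 were called, across 14 libraries (21 positive and 15 negative folds, median 0.02) or within title pairs (22 and 14, median 0.05), with medians over all rows of 0.01 and 0.00. An unadjusted p under 0.05 was reached by 2 of 36 across 14 libraries (1.06% of all rows) and 6 of 36 within pairs (5.72% of all rows). Of those 6, WNT5A, WNT4, MAPK10 and FJX1 were higher on the left and FZD1 and PRICKLE4 lower. The ligands WNT5A, WNT5B, WNT11 and WNT4, which signal through ROR2 and Frizzled, were each higher on the left in 4 of 5 pairs. The exceptions were replicate 1 for WNT5A (7.92 CPM left, 8.87 right), replicate 6 for WNT5B (8.14 left, 10.4 right), replicate 2 for WNT11 (1.69 left, 2.29 right) and replicate 5 for WNT4 (5.83 left, 6.46 right). Their paired log2 folds ran from 0.25 ± 0.16 for WNT11 to 0.81 ± 0.31 for WNT4 (edgeR adjusted p from 0.688 to 0.897). The share of all rows higher on the left in 4 of 5 pairs was not counted, so such counts have no background here.

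The receptor kinase ROR1, a paralog of ROR2, had mean levels of 14.4 ± 4.85 CPM (left) and 18.8 ± 7.55 CPM (right; SD over 7 libraries each) and a log2 fold of -0.38 ± 0.31. PTK7, a kinase-like co-receptor, was at 92.4 ± 30.2 and 87.6 ± 30.8 CPM, and RYK was not analysed here. The Dishevelled genes, whose proteins relay the Frizzled signal, had side folds of 0.01 ± 0.46 for DVL1, 0.23 ± 0.22 for DVL2 and 0.02 ± 0.10 for DVL3. FJX1, whose Drosophila counterpart is a Golgi kinase acting on the cadherins Fat and Dachsous, was chosen after its values were seen. It was at 34.2, 37.0, 34.3, 16.3 and 16.7 CPM in left samples of the 5 pairs, against 20.8, 21.4, 23.7, 14.2 and 10.5 CPM in right samples, higher on the left in each. The paired log2 fold of FJX1 was 0.58 ± 0.10 (unadjusted p = 0.000328, edgeR adjusted p = 0.433). Of the 36 genes, 3 were higher on the left in every pair (FJX1, MAPK10 and INVS), beside 3.53% of rows. MAPK10 (0.390 to 1.11 CPM left, 0.0862 to 0.452 right) and INVS (1.03 to 1.27 left, 0.782 to 1.12 right) were at low levels, which limits these orders. Across all 14 libraries their log2 folds were 0.94 ± 0.52 for MAPK10 and -0.02 ± 0.26 for INVS. The 2 of 36 that were lower in every pair, beside 3.76% of rows, were FZD1, a Frizzled receptor, and PRICKLE4, a PRICKLE paralog. Their paired log2 folds were -0.23 ± 0.09 for FZD1 (edgeR adjusted p = 0.836) and -0.37 ± 0.11 for PRICKLE4 (0.724), and these genes too were chosen after their values were seen. Across all 14 libraries the folds were -0.24 ± 0.15 for FZD1 and -0.04 ± 0.50 for PRICKLE4.

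Between pools and single-stomach libraries 6 of 36 listed genes were called (16.7%, against 30.4% of rows). WNT4 fell by 1.67 ± 0.39 on the log2 scale (edgeR adjusted p = 0.00501), PTK7 by 0.71 ± 0.23 (0.0309), FZD2, another Frizzled receptor, by 0.67 ± 0.14 (0.00223) and the scaffold SCRIB by 0.46 ± 0.16 (0.0479). The kinase MAPK8 (entry MK08), also known as JNK1, rose by 0.95 ± 0.14 (0.000296) and GIPC1, an adaptor in VANGL2 transport, by 0.60 ± 0.12 (0.0019). The median log2 fold of the 36 was -0.13, close to the -0.10 of all rows.

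**Figure D5:**
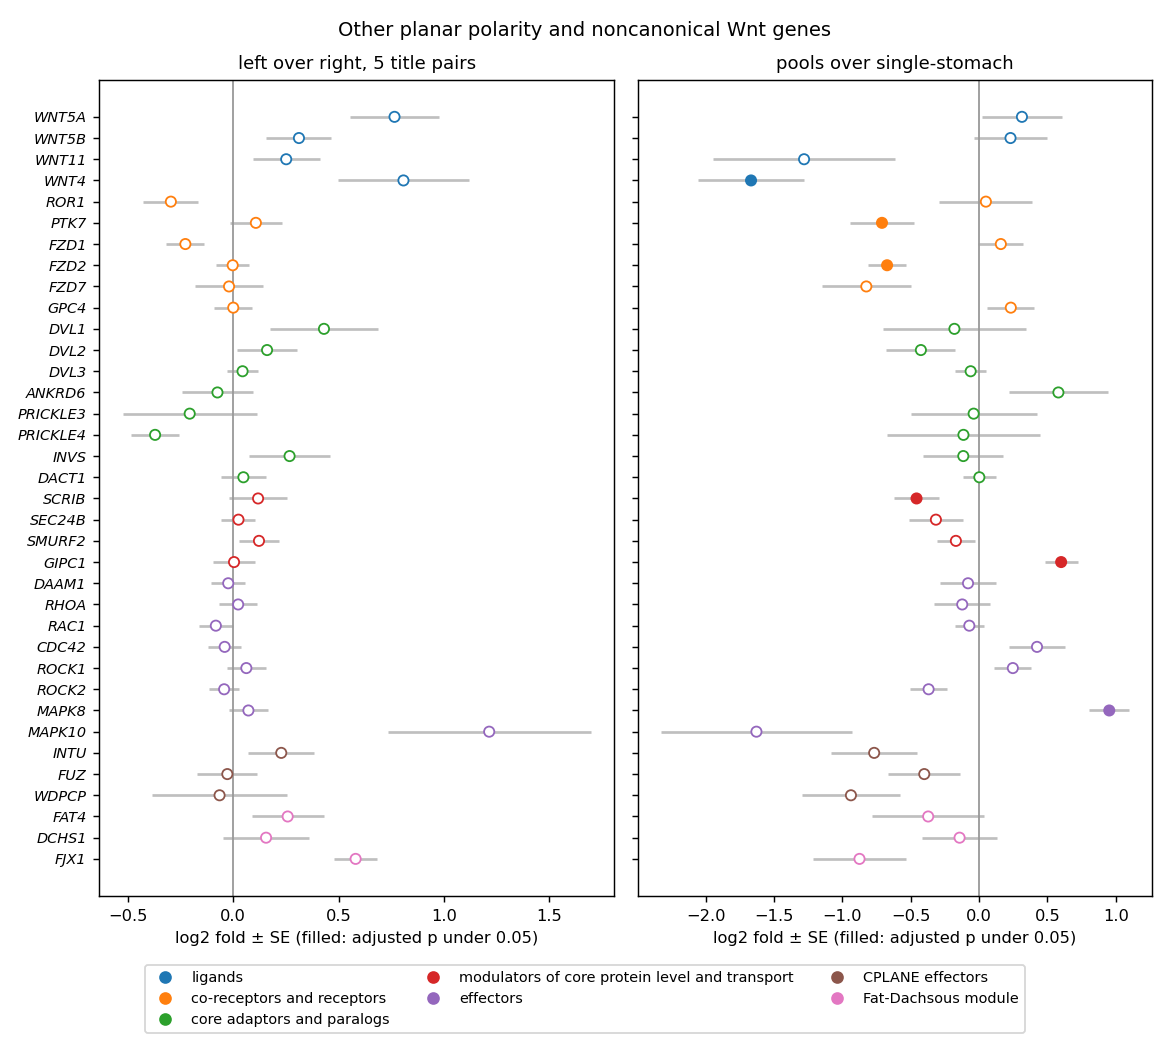
Log2 fold with its standard error (bars) of 36 other planar polarity and noncanonical Wnt genes within title pairs (left over right) and for pools over single-stomach libraries, coloured by role and filled where the edgeR adjusted p was under 0.05. No gene is filled for the sides, and WNT4, PTK7, FZD2, SCRIB, GIPC1 and MAPK8 are filled for the pools.

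Across the 14 libraries, with the mean of each library source removed, each gene was set beside 8849 other entries by Pearson's r. The entries nearest to VANGL1 were RAB27B (entry RB27B; r = 0.971), which acts in vesicle secretion, SCNN1A (SCNNA; 0.967), a subunit of the epithelial sodium channel, and TMEM213 (TM213; 0.962). Nearest to ROR2 was EFNB2 (0.975), an ephrin ligand, nearest to CELSR1 was SMO (0.919), the transducer of Hedgehog signals, and nearest to FZD3 was GNAI1 (0.948), an inhibitory G protein subunit. The entry nearest to CELSR3 was USH1C (0.963), a scaffold of microvilli and hair cells, and to FZD6 it was BTBD6 (0.879). The libraries shared depth, side and the 2 single-stomach sets, which also move these values, so they are a description only.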

How the data were processed

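Strand-specific RNA libraries were made from 14 stomach samples. A table of 26940 rows, each named by a human UniProt entry or isoform, was deposited by the authors as raw read counts and again as a normalized signal. The submitters' processing notes name DESeq, Bowtie, Trimmomatic, SAMtools 0.1.19 and Bowtie2 2.1.0. How reads were assigned to rows, and with what use of strand, is not given in the sources used here, so rows of one entry and close paralogs may share reads. The normalized values, rescaled by their ratio to the raw counts, gave back whole counts within 0.01 reads for 100% of values. The count test on these called 0 rows between the sides. It is no separate support, since the scale was taken from the raw counts.

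Counts were tested with edgeR 4.0.16 in R 4.3.3 (quasi-likelihood, TMM, filterByExpr, Benjamini-Hochberg over all rows, threshold 0.05). Terms were library source and side for 14 libraries, with their interaction added for 1 test, and title pair and side for the 10 single-stomach libraries. Each SE was taken as log2 fold over the square root of F. CPM uses TMM-scaled totals of filtered rows, and likeness used log2(CPM + 0.5). DESeq2 1.42.0 was an alternative. The programs were tested on simulated counts. Each p-value weighs a fold against the spread between libraries that the terms of its fit leave. For the title pairs that is the spread of the side difference between pairs.

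The pairing by title stem was checked: deviations of same-stem libraries from their side and source means correlated at 0.623 to 0.846 over 5 pairs, part of which follows the 2 single-stomach sets. Of the 10 libraries 8 correlated best with their own stem, and left 2 and right 3 did not. Libraries of a side differed beyond counting noise (chi-square over its degrees of freedom was 15.6 to 348 in 42 pairs of libraries). The genes, lists and pair comparison were chosen with earlier results of these data known. Named were the 9 genes, 10 listed pathway genes (RYK not analysed here), listed genes called in a comparison, and the 3 nearest entries per gene, of which some are printed.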

Additional observations from a re-analysis of the deposited data

Results flagged for a closer look

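CELSR3 (entry CELR3) was flagged in the pools, because 1 library lay far from the other 3. The left pool 8 held 2.05 CPM, from 27 reads, and the other pools held 0.0866 to 0.392 CPM, from 1 to 8 reads. Of 36 groups of libraries examined in this way 1 was flagged, and chance flags about 1 in 20. The same library held the highest PRICKLE2 (8.94 CPM) and the lowest FZD3 (1.82 CPM) of the 14. It also held the highest level of the neuronal marker TUBB3 (entry TBB3; 196 CPM) and the lowest of the stomach mesenchyme factor NKX3-2 (entry NKX32; 8.94 CPM).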

How the results depend on the processing

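The 9 genes were never called between the sides under the edgeR alternatives, and DESeq2 called FZD3 only in the title pairs without replicate 5. The rows called by DESeq2 were 13 with the replicate block and 6 with 3 library sets across 14 libraries, 141 for the interaction, and 105 within pairs, or 23, 44, 105, 100 and 98 without replicate 1, 2, 3, 5 or 6. The DESeq2 fits with the replicate block, with 3 library sets and without 1 replicate were added after the data were seen. The interaction called 0 to 1541 rows by edgeR when 1 library was left out, the highest without left 7. With a replicate block across 14 libraries, in which each title pair was a level and the 4 pools shared 1 level, edgeR called 0 rows, and no paired analysis was possible for pools against single-stomach libraries because each pair lies in 1 library source.

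Signs turned where the fold of the main fit was smaller than its standard error. Some of the turned folds were not small (-0.80 for FZD3, 1.01 for CELSR3), and the cause was not tested. For left over right across 14 libraries, the single-stomach libraries alone gave -0.15 for PRICKLE2, and the pools alone gave 0.031 for VANGL2, -0.28 for CELSR1, -0.80 for FZD3, -0.20 for FZD6 and 0.065 for ROR2. With 1 library left out the folds ran from -0.11 to 0.10 for VANGL2, -0.071 to 0.35 for PRICKLE2, -0.0047 to 0.39 for FZD3, -0.027 to 0.18 for FZD6 and -0.26 to 0.0045 for ROR2. Within pairs VANGL1 was at -0.0020 by DESeq2, -0.0012 with RLE size factors, and -0.16 and -0.036 by DESeq2 without replicate 3 or 5. Without 1 pair edgeR gave -0.16 to 0.11 for VANGL1 and -0.10 to 0.0017 for VANGL2. For pools over replicates 5 and 6 alone the folds were -0.20 for VANGL2, -0.35 for PRICKLE2 and 1.01 for CELSR3. Without 1 library they ran from -0.063 to 0.23 for VANGL2, -0.28 to 0.46 for PRICKLE2 and -1.53 to 0.0067 for CELSR3. PRICKLE1 lost its call with RLE size factors (adjusted p = 0.0547), and FZD3 lost it against replicates 5 and 6 alone (0.12). CELSR3 in all libraries, and VANGL1 in the pools, rest on few reads, which limits both.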
